A study of Mus musculus with 8 samples.

Results

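The desmosome genes described here are Dsg1a, Dsg1b, Dsg3, Dsc1, Dsc2, Dsc3, Dsp, Pkp1, Pkp3 and Perp, chosen by name as desmosomal cadherins, plakophilins, desmoplakin and the tetraspan protein Perp, and they are 10 of the 18770 genes in the deposited table. Messenger RNA was sequenced from the dorsal skin of wildtype C57BL/6 mice aged 7 to 8 weeks, all male, whose hair in the resting phase had been shaved and plucked out with wax. From 24 h later, 1 group received the plant flavonoid alpinetin (AP, 20 µl at 3 mg per ml in 65% ethanol, once a day) and the other the 65% ethanol alone (VC), and skin was taken on day 4 after depilation. The tissue was dermis with its hair follicles, from which the epidermis between the follicles had been taken off. Strain and age are given here as in the sample labels. The study's methods name the strain C57BL/6J and give an age of 6 to 7 weeks at depilation. Each group had 4 libraries, each from a mouse, called here by group and column number in the table (VC.1, AP.1 and so on), and values are listed in that order. They held 6454563 to 7264151 reads on listed genes in VC and 8507783 to 11190113 in AP. The libraries also differed in the share of reads from mitochondrially encoded genes, which was 48.4% ± 5.81 (SD, n = 4) in VC and 8.66% ± 2.63 (SD, n = 4) in AP. Of 13 such genes, 12 were tested. At an adjusted p under 0.05 (limma), 10 were lower in AP, against 4.0% of all genes tested, and 0 were higher. All 12 had negative values, with a median log2 fold change of -3.38. What this difference contributed to the results was not tested.

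Desmosomes are the spot-like junctions that hold keratinocytes together and anchor their keratin filaments at the cell surface. Desmogleins and desmocollins, which are cadherins, bind those of the neighbouring cell, and their tails recruit plakoglobin and plakophilins, which in turn bind desmoplakin, the link to keratin. In the epidermis the cadherins change as cells leave the basal layer: desmoglein 3 and desmocollin 3 belong to the basal and lower layers, desmoglein 1 and desmocollin 1 to the upper ones, and the hair follicle uses them in its own layers.

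Most of the 10 genes had more RNA in AP than in VC. Of the 10, 8 were higher in AP at an adjusted p under 0.05 in limma's test over 15964 genes (Dsg1a, Dsg1b, Dsg3, Dsc1, Dsc3, Dsp, Pkp1 and Perp), against 6.33% of all genes tested, and 0 were lower, against 4.0% of all genes; at an unadjusted p under 0.05, and with edgeR, DESeq2 and limma-voom, 0 were lower as well. At an unadjusted p under 0.01 with a fold change over 1.5 (limma) the count was also 8, beside 1319 of the 15964 genes tested. With edgeR on the recovered reads it was 8, beside 1003 of all genes. In these 8 genes every AP library lay above every VC library, which held for 10.3% of all genes tested, and the exact permutation p (two-sided) was 0.0286 for each, the smallest that the 70 assignments of 4 libraries against 4 can give. The median log2 fold change of the 10 was 2.34, beside 0.06 over all genes tested, where the fold change is the difference of log2(normalized count + 1) between the groups. All 10 passed the filter on low values (at least 3 normalized counts in at least 4 libraries). Over all genes, 1011 were higher and 639 lower, a share of 61.3% higher among those called, and this depended on the processing: 99.2% with total counts, which moved the median of all genes by 0.84, 49.9% with upper-quartile scaling, 49.7% with limma-voom and 52.9% with the length trend removed. The number of calls depended on single libraries, with 584 higher and 255 lower without VC.1, 385 and 155 without AP.2, 211 and 96 without AP.3, and 257 and 147 without AP.4. In bulk tissue, more keratinocytes of a kind and more RNA per keratinocyte cannot be told apart.

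**Figure D1:**
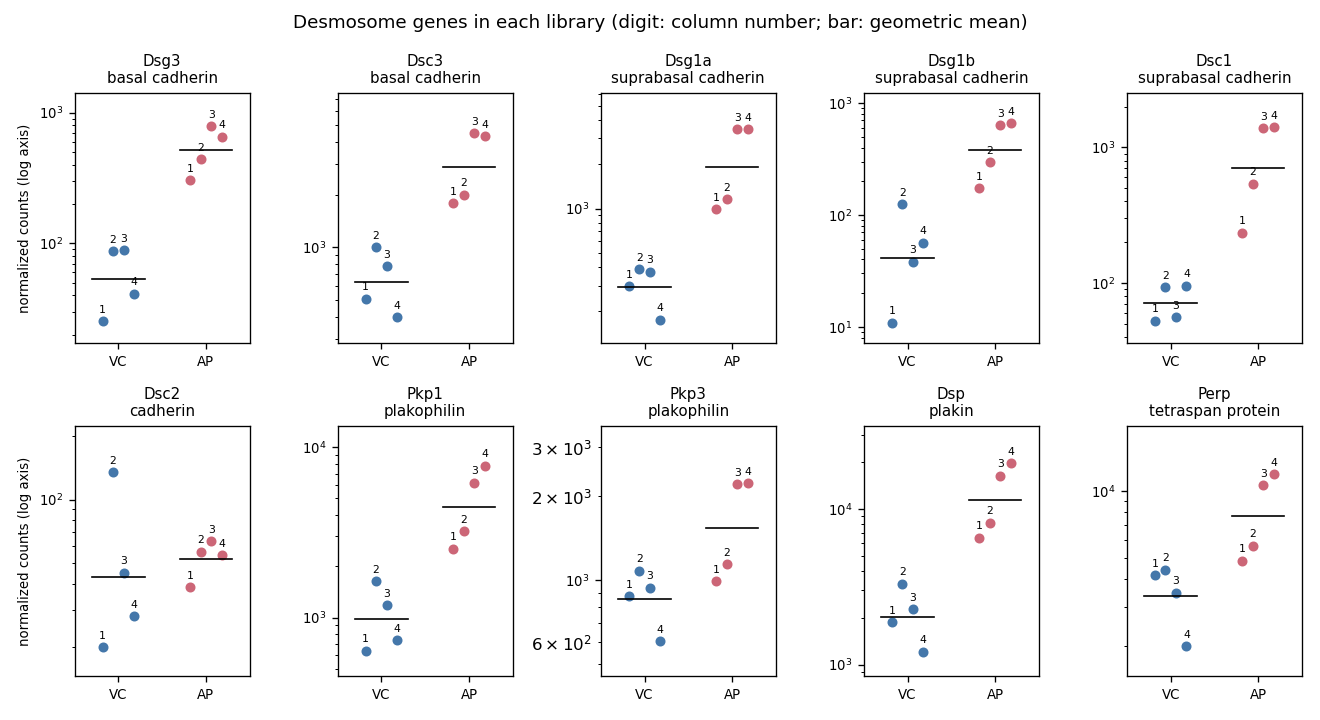
Normalized counts (log axis) of each desmosome gene in the 4 VC and 4 AP libraries, with the library's column number above each point and a bar at the group's geometric mean. The groups are apart in 8 of the 10 panels and overlap for Dsc2 and Pkp3, and AP.3 and AP.4 lie above AP.1 and AP.2 in all panels except that of Dsc2.

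The basal cadherins come first. Dsg3, the desmoglein of the basal and lower spinous layers and of the outer root sheath, was at 25.5, 87.2, 88.8 and 41.3 normalized counts for the VC columns and 305, 441, 788 and 657 for the AP columns. All AP libraries stood above the VC libraries, with AP.1 lowest and AP.3 highest in their group. The means were 60.7 ± 32.2 and 548 ± 216 (SD, n = 4 each), a rise of 3.24 on the log2 scale (SE 0.41, limma adjusted p = 0.0036). The VC values rest on few reads, 160 over the 4 libraries, with 14 of them in VC.1. Dsc3, its desmocollin counterpart, had a much higher count, at 509, 998, 782 and 399 normalized counts among the VC mice against 1784, 1996, 4459.8 and 4287 among the AP mice. Its groups were also apart, and AP.3 and AP.4 were above AP.1 and AP.2. Dsc3 rose by 2.18 (SE 0.36, limma adjusted p = 0.00896).

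Among the suprabasal cadherins, Dsg1a, a mouse gene for desmoglein 1 that was counted higher here than its near copy Dsg1b, was at 298, 386, 373 and 176 normalized counts over the VC libraries, in order, and 988, 1165, 3449 and 3482 over the AP libraries. AP.3 and AP.4 were close to each other and stood well above AP.1 and AP.2, while the lowest AP library was still above the highest VC library, VC.2. Dsg1a rose by 2.70 (SE 0.42, limma adjusted p = 0.00843). Dsg1b was at 10.9, 124, 38.2 and 56.3 normalized counts for the VC columns and 173, 294, 633 and 663 for the AP columns. The VC libraries were widely scattered, the highest 11.37 times the lowest, and VC.1 had 6 reads. The log2 fold change of Dsg1b was 3.16 (SE 0.64, limma adjusted p = 0.0167), and it missed the threshold without AP.3 (adjusted p = 0.0575) or AP.4 (adjusted p = 0.0528), with 2.78e-05 to 0.0575 over all alternatives. Dsc1, the desmocollin of the upper layers, was at 52.8, 93.1, 56 and 95.6 normalized counts among the VC mice against 234, 541, 1392 and 1416 among the AP mice. Here the VC libraries were close together and the AP libraries spread widely, AP.1 being lowest. Dsc1 had the highest log2 fold change of the 10, 3.29 (SE 0.50, limma adjusted p = 0.0078), within the SE of those of Dsg3 and Dsg1b.

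Basal and suprabasal cadherins thus both rose, and the contrast asks whether either kind rose more than the other. The mean log2 level of Dsg1a, Dsg1b and Dsc1 minus that of Dsg3 and Dsc3 was -1.01, -0.84, -1.49 and -0.39 over the VC libraries, in order, and -1.11, -0.72, -0.37 and -0.18 over the AP libraries. The groups overlapped: AP.1 was below 3 of the 4 VC libraries, and VC.4 was near AP.3. The group means were -0.93 ± 0.46 and -0.59 ± 0.41 (SD, n = 4 each), and their difference of 0.34 was smaller than the spread within either group. No test was made of this score. It stayed between 0.15 and 0.52 when each library was left out. The ratio of summed normalized counts, Dsg1a, Dsg1b and Dsc1 over Dsg3 and Dsc3, was 0.677, 0.556, 0.536 and 0.745 in VC. In AP it was 0.668, 0.821, 1.04 and 1.12, with AP.1 below VC.1 and VC.4 and the rest of AP above VC. The means differed by 0.286, more than the SD in VC (0.0994) or AP (0.209). Dsg1a and Dsc3 lead these sums, and no test was made of this ratio either.

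The single pairs did not all point the same way. Ratios of normalized counts within a library do not depend on the scaling between libraries. They are read here across libraries and not as which gene is higher. A trend with transcript length does not cancel in them. The median log2 fold change was -0.30 in the 2817 genes with the shortest transcripts and 0.36 in the 2814 with the longest. No ratio in these results was adjusted for length, and what the trend contributed to them was not tested. Dsg1a over Dsg3, the upper over the lower desmoglein, was 11.7, 4.42, 4.20 and 4.27 for the VC columns and 3.24, 2.64, 4.38 and 5.30 for the AP columns. VC.1 was far above the rest, on 14 reads of Dsg3, and the other 3 VC libraries lay within the range of AP. Dsc1 over Dsc3, the same contrast for desmocollins, was 0.104, 0.0933, 0.0716 and 0.239 among the VC mice against 0.131, 0.271, 0.312 and 0.330 among the AP mice. AP.2, AP.3 and AP.4 were above all VC libraries and AP.1 lay below VC.4, so the groups overlapped. Within the basal pair, Dsg3 over Dsc3 was 0.05, 0.0874, 0.113 and 0.103 over the VC libraries, in order, and 0.171, 0.221, 0.177 and 0.153 over the AP libraries. These groups were apart, with Dsg3 higher relative to Dsc3 in all 4 AP libraries.

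**Figure D2:**
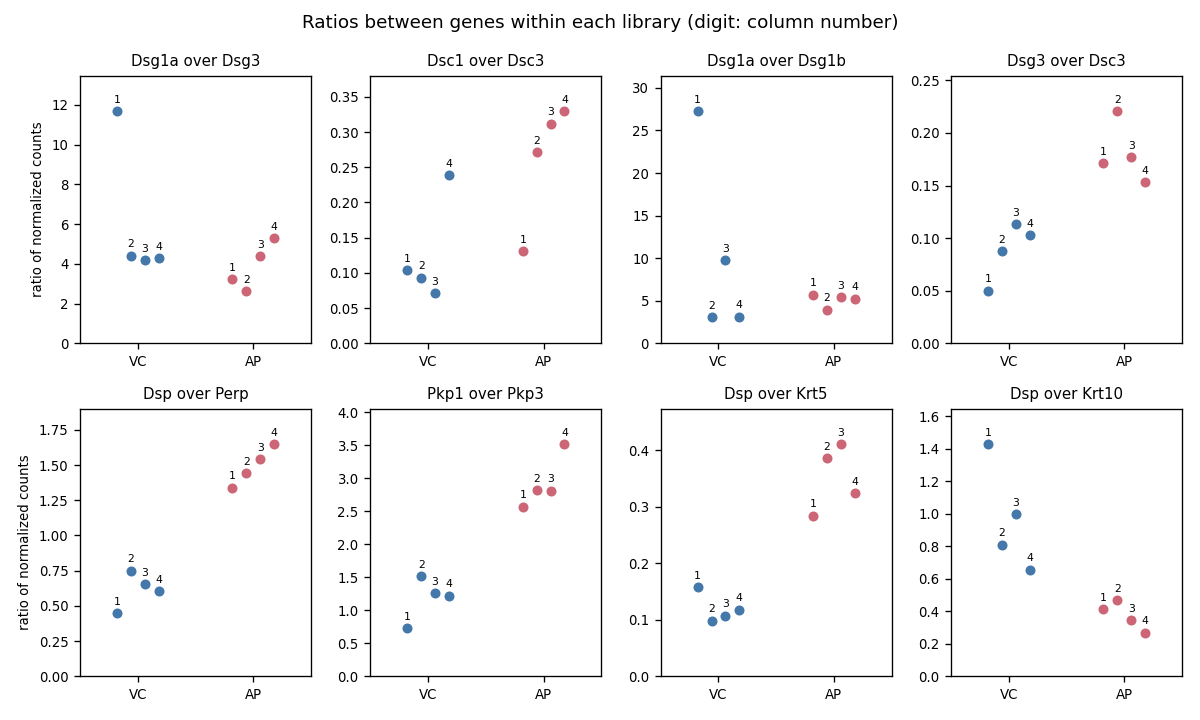
Ratios of normalized counts between pairs of genes within each VC and AP library, each axis starting at 0 and the column number above each point. The groups are apart for Dsg3 over Dsc3, Dsp over Perp, Pkp1 over Pkp3, Dsp over Krt5 and, with AP lower, Dsp over Krt10, and they overlap in the other panels.

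Dsc2, the desmocollin of simple epithelia and heart, did not move with the others. It was at 20, 134, 45.1 and 28.1 normalized counts for the VC columns and 38.4, 56.6, 63.3 and 54.4 for the AP columns. VC.2 was the highest of all 8 libraries and VC.1 the lowest, and the AP libraries lay between them. The log2 fold change was 0.27 (SE 0.51, limma adjusted p = 0.754), and its sign turned with edgeR (-0.12), with DESeq2 (-0.11) and without VC.1 (-0.09). It had 150 reads in VC and 361 in AP over the 4 libraries each.

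The cadherin genes lie side by side on chromosome 18 (GENCODE M21, GRCm38). The desmocollins Dsc3 (chr18:19960930-20002351), Dsc2 (chr18:20030633-20059554) and Dsc1 (chr18:20084184-20114871) are on the minus strand, followed on the plus strand by Dsg1c, Dsg1a (chr18:20310811-20343350), Dsg1b (chr18:20376729-20410196), Dsg4, Dsg3 (chr18:20510274-20547459) and Dsg2. The whole row spans 643.6 kb. Neighbours in it differed in their change: Dsc2 lies between Dsc3 and Dsc1, both higher in AP, and had no call itself. The desmoglein 1 genes are near copies, which matters for how their reads were assigned. Of the 50-base words in the longest transcript of Dsg1a, 35.02% also occur in transcripts of another gene, and of those of Dsg1b 48.95%, with 1780 words common to Dsg1a and Dsg1b. Reads from such stretches may have been dropped or assigned to the wrong copy, so the level of each and the ratio between them are uncertain. Dsg1a over Dsg1b was 27.3, 3.11, 9.75 and 3.13 among the VC mice against 5.72, 3.96, 5.45 and 5.25 among the AP mice. It varied widely in VC, where VC.1 had 6 reads of Dsg1b, and little in AP, and the groups overlapped. The words shared came to 0.36% for Dsg3 and 4.72% for Dsp, and to 0 for Dsc1, Dsc2, Dsc3, Pkp1, Pkp3 and Perp.

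**Figure D3:**
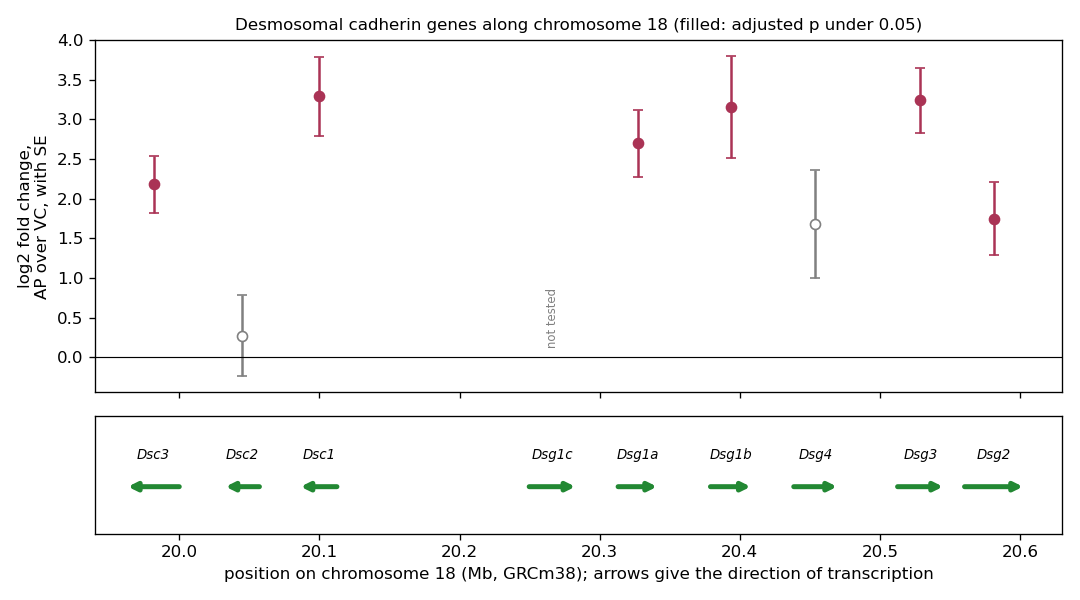
Log2 fold change (AP over VC) with its SE for the desmosomal cadherin genes, placed by position on chromosome 18 (Mb), with arrows for the direction of transcription and filled points for an adjusted p under 0.05. Of the 8 genes tested, 6 are filled, while Dsc2 and Dsg4 are open and Dsg1c was below the filter.

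The plakophilins differed from each other. Pkp1 (chr1:135871395-135919207, minus strand), the plakophilin of stratified epithelia that is most abundant in the upper layers and whose loss causes fragile skin in people, was at 640.3, 1634, 1181 and 735 normalized counts over the VC libraries, in order, and 2536, 3222, 6188 and 7793 over the AP libraries. The groups were apart and AP.4 was the highest library. Pkp1 rose by 2.19 (SE 0.38, limma adjusted p = 0.0104). Pkp3 (chr7:141078218-141090510, plus strand), found in all living layers of the epidermis, was at 873, 1077, 937 and 602 normalized counts for the VC columns and 987, 1141, 2199 and 2214 for the AP columns. AP.1 lay below VC.2, so the groups overlapped, and only AP.3 and AP.4 stood clearly above VC. The log2 fold change of Pkp3 was 0.84 (SE 0.29, limma adjusted p = 0.0763). It passed with DESeq2 (adjusted p = 0.0266), with total counts (adjusted p = 0.00183) and without AP.1 (adjusted p = 0.0313), in a range up to 0.205 over all alternatives. Pkp1 over Pkp3 was 0.733, 1.52, 1.26 and 1.22 among the VC mice against 2.57, 2.82, 2.81 and 3.52 among the AP mice. Every AP library was above every VC library, so within the libraries Pkp1 was higher relative to Pkp3 in AP.

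Desmoplakin, encoded by Dsp, is the plakin that ties the plaque to keratin. Dsp was at 1868, 3309, 2276 and 1208 normalized counts over the VC libraries, in order, and 6535, 8179, 16334 and 19681 over the AP libraries. It had the highest normalized count of the 10 in AP, every AP library being above the VC libraries and AP.3 and AP.4 above AP.1 and AP.2. The means were 2165 ± 880.4 and 12682 ± 6334 (SD, n = 4 each), and Dsp rose by 2.49 (SE 0.38, limma adjusted p = 0.00843). Perp (chr10:18845020-18857073, plus strand), a tetraspan membrane protein of desmosomes and a target of p63, was at 4175, 4418, 3483 and 1999 normalized counts for the VC columns and 4861, 5671, 10640 and 11909 for the AP columns. The highest VC library, VC.2, was just below the lowest AP library, AP.1. The log2 fold change of Perp was 1.19 (SE 0.34, limma adjusted p = 0.0462), close to the threshold. Its call was lost without any of the libraries except AP.1, with an adjusted p of up to 0.133 (without AP.3), and with upper-quartile scaling (adjusted p = 0.0511) or no filter (adjusted p = 0.0529). Dsp over Perp was 0.447, 0.749, 0.653 and 0.604 among the VC mice against 1.34, 1.44, 1.54 and 1.65 among the AP mice. The groups were far apart, each narrower than the gap between them, so Dsp was higher relative to Perp in AP. The longest transcript has 9592 bases for Dsp and 1952 for Perp. The part of the length trend in this ratio was not tested. Dsp over Pkp1 was 2.92, 2.02, 1.93 and 1.64 over the VC libraries, in order, and 2.58, 2.54, 2.64 and 2.53 over the AP libraries. It was steady over the AP libraries and lay within the range of VC.

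Per kilobase of the longest transcript, the members differed in level over a wide range. Perp was highest in both groups, at 1803 ± 557 normalized counts per kb in VC and 4237 ± 1805 in AP (SD, n = 4 each), and its range did not overlap that of the next gene in either group. In VC, Pkp3 followed at 299 ± 68.3, Dsp at 226 ± 91.8, Pkp1 at 224 ± 97.8 and Dsc3 at 126 ± 50.7, and the ranges of these neighbours overlapped. Below them in VC, Dsg1a at 54.2 ± 16.9 was apart from Dsc3 above it and from Dsc1 below it, at 18.2 ± 5.67. Dsc1, Dsg1b, Dsc2 and Dsg3 were lowest in VC, with overlapping ranges and means from 9.77 to 18.2. In AP, Dsp was second at 1322 ± 660.4, Pkp1 next at 1057 ± 531 and Dsc3 at 587 ± 269.7. Pkp3, at 560.2 ± 227, was near Dsc3, which lay above it in 2 of the 4 AP libraries, and the ranges of Dsp, Pkp1, Dsc3 and Pkp3 overlapped from each to the next. Dsp was above Pkp1 in all 4 AP libraries, and in 1 of the 4 VC libraries. Dsg1a followed at 399 ± 243, Dsc1 at 219 ± 147, Dsg1b at 111 ± 61.7 and Dsg3 at 88.2 ± 34.8, neighbours whose ranges overlapped. Dsc2 was last in AP at 11.5 ± 2.27, below every other member in each AP library. Among the basal cadherins, then, Dsc3 was far above Dsg3 per kb in all 8 libraries, and among the suprabasal ones Dsg1a was above Dsc1. The places of Dsg1a and Dsg1b in this order are uncertain, as their levels are, because of the words they share.

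Other desmosome genes were mixed as well. The counts called in this and the later lists stand beside 6.33% higher and 4.0% lower over all genes tested. Of 7, 6 were tested and 2 were higher: Jup, which encodes plakoglobin (log2 fold change 1.44, SE 0.31, limma adjusted p = 0.0193), and Dsg2, the desmoglein of simple epithelia and of basal and follicle keratinocytes (log2 fold change 1.75, SE 0.46, limma adjusted p = 0.0361). Both missed the threshold in some fits without 1 library, where the fold changes stayed positive and fewer genes of any kind were called: Jup without AP.3 (log2 fold change 1.29, adjusted p = 0.0647) or AP.4 (1.24, adjusted p = 0.055), and Dsg2 without VC.1, VC.3, AP.2, AP.3 or AP.4 and with the length trend removed (log2 fold change 1.45 to 1.93, adjusted p from 0.0522 to 0.111). Jup was at 1453, 1961, 1648 and 1012 normalized counts for the VC columns and 2439.8, 3108, 5576 and 6167 for the AP columns. Its groups were apart. Dsp over Jup was 1.29, 1.69, 1.38 and 1.19 among the VC mice against 2.68, 2.63, 2.93 and 3.19 among the AP mice, with the groups apart as well. The other 4 had no call: Cdsn, which encodes corneodesmosin of the cornified layer (log2 fold change 1.44, SE 0.42, limma adjusted p = 0.0512), which passed with DESeq2 (adjusted p = 0.0135), total counts (0.00193), a pseudocount of 5 (0.0458) and without VC.4 (0.0325) or AP.1 (0.0282); Dsg4, the desmoglein of the hair shaft (log2 fold change 1.68, SE 0.68, limma adjusted p = 0.125; with total counts adjusted p = 0.012); Pkp4 (log2 fold change 0.13, SE 0.15, limma adjusted p = 0.586; with total counts adjusted p = 0.00237); and Pkp2, the plakophilin of heart and simple epithelia (log2 fold change -0.37, SE 0.43, limma adjusted p = 0.595). Dsg1c had 0 reads in VC and 14 in AP, and was below the filter. Both desmosome-linked plakins, which also form the scaffold of the cornified envelope, were higher: Ppl, for periplakin (log2 fold change 1.27, SE 0.33, limma adjusted p = 0.0372), and Evpl, for envoplakin (log2 fold change 1.30, SE 0.35, limma adjusted p = 0.0384). Ppl was lost in 5 of the 8 fits without 1 library (VC.1, VC.3, VC.4, AP.3 or AP.4) and Evpl in 6 (VC.1, VC.2, VC.4, AP.2, AP.3 or AP.4), with adjusted p up to 0.112 for each, and both with the length trend removed (adjusted p = 0.123 and 0.11).

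Adherens junctions are the other cadherin junctions of keratinocytes, tied to actin and not to keratin. Of their 8 genes, 3 were higher and 0 lower (0 lower too at an unadjusted p under 0.05 and with edgeR, DESeq2 or limma-voom), with a median log2 fold change of 0.31. The 3 were Cdh1, which encodes E-cadherin (log2 fold change 1.20, SE 0.26, limma adjusted p = 0.0211), Nectin1 (log2 fold change 1.26, SE 0.30, limma adjusted p = 0.0282) and Nectin4 (log2 fold change 1.11, SE 0.31, limma adjusted p = 0.0439). Their highest adjusted p without 1 library was 0.0679, 0.0912 and 0.131, each time without AP.3. Cdh1 also lost its call without VC.1 or AP.4, Nectin1 without AP.2 or AP.4, and Nectin4 without any library except AP.1. With the length trend removed Nectin1 and Nectin4 were lost (adjusted p = 0.0711 and 0.0741), as was Nectin4 with limma-voom (adjusted p = 0.0613). Cdh3, the P-cadherin of basal and matrix keratinocytes, had a log2 fold change of 0.27 (limma adjusted p = 0.672). The catenins, used by many cell types of skin, gave 0.36 for Ctnna1, 0.05 for Ctnnb1 and -0.12 for Ctnnd1 (limma adjusted p = 0.117, 0.865 and 0.726), and Afdn, for afadin, gave 0.08 (adjusted p = 0.838). With total counts all 8 were called higher, against 3 in the main fit, Ctnnd1 included (log2 fold change 0.75, adjusted p = 0.0252), beside the shift of 0.84 in all genes. The median of the 8 ran from 0.20 without AP.3 to 0.44 without VC.3. It was 0.17 with the length trend removed and 1.18 with total counts.

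Proteases that cut desmosomal proteins during shedding of the cornified layer, and their inhibitor, made a list of 4, of which 3 were tested and 2 were higher. Klk5 was at 0, 70.9, 28.7 and 24.4 normalized counts over the VC libraries, in order, and 168, 129, 527 and 481 over the AP libraries. VC.1 had 0 reads and the groups were apart. Its log2 fold change was 4.16 (SE 1.07, limma adjusted p = 0.0344), 2.85 without VC.1 and 3.35 with edgeR, and its call was lost without VC.4, AP.2, AP.3 or AP.4 (adjusted p up to 0.103) and with limma-voom (adjusted p = 0.0692). Klk7, the chymotrypsin-like enzyme of that layer, had 1.79 (SE 0.38, limma adjusted p = 0.0186), lost without AP.3 or AP.4 (adjusted p = 0.0564 and 0.0548). Spink5, which encodes their inhibitor, had 1.20 (SE 0.47, limma adjusted p = 0.118), with AP.2 at 195 normalized counts below all VC libraries. It passed without AP.2 (adjusted p = 0.0302), with DESeq2 (adjusted p = 0.00925) and with total counts (adjusted p = 0.00469). Klk14 was below the filter, with 4 reads in AP and 0 in VC. Of 4 transcription factors known to act on desmosome genes, Klf4, a factor of the differentiating layers, was higher (log2 fold change 1.07, SE 0.19, limma adjusted p = 0.0108), with every AP library above VC. Trp63, which encodes p63 (log2 fold change 0.77, SE 0.32, limma adjusted p = 0.13), Grhl1 (log2 fold change 0.91, SE 0.30, limma adjusted p = 0.0689) and Grhl3 (log2 fold change 3.52, SE 1.08, limma adjusted p = 0.0589) had no call. With total counts Trp63 passed (adjusted p = 0.00257), and Grhl1 did so there (adjusted p = 0.00214), with DESeq2 (adjusted p = 0.0267) and without AP.1 (adjusted p = 0.0374). Grhl3 had 0 reads in VC.4 and passed without VC.4 (log2 fold change 2.12, adjusted p = 0.0217) or VC.2 (adjusted p = 0.0452), and with edgeR (adjusted p = 0.0275), DESeq2 (0.039), total counts (0.00537) and a pseudocount of 5 (0.0267), in a range up to 0.144 over all alternatives. Of the 10 genes called in these lists, 1, Klf4, was called in each fit without 1 library.

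**Figure D4:**
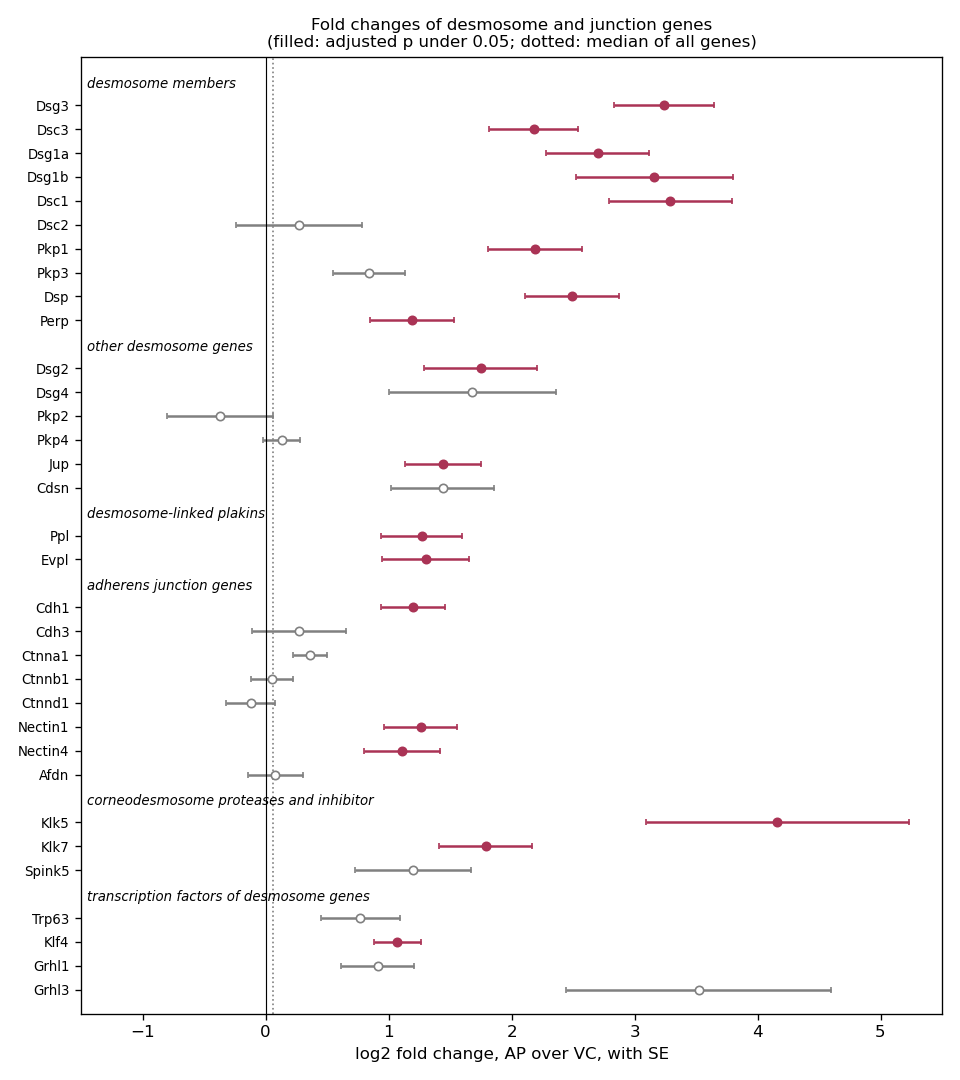
Log2 fold change (AP over VC) with its SE for the desmosome genes and 5 lists of related genes, with filled points for an adjusted p under 0.05, a line at 0 and a dotted line at 0.06, the median of all genes tested. Filled points are 8 of 10 desmosome genes, 3 of 8 adherens junction genes, Jup and Dsg2 of the other desmosome genes, both plakins, Klk5, Klk7 and Klf4.

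Markers of cell types moved along with these genes, and their part in the results was not tested. Over all genes tested, 6.33% were called higher and 4.0% lower. Of 8 suprabasal keratinocyte markers, 7 were higher in AP (median log2 fold change 3.11), and their summed normalized counts were 5539, 12183, 8216 and 5291 for the VC columns and 42037, 39832, 116364 and 166570 for the AP columns. None of them was at 0 in any library, although the epidermis between the follicles had been removed. The highest mean in both groups was that of Krt10, a keratin of the spinous layer, at 1302, 4084, 2280.3 and 1838 normalized counts among the VC mice against 15852, 17528, 47444 and 73322 among the AP mice (log2 fold change 3.85, SE 0.50, limma adjusted p = 0.00367). The order of the libraries was like that of Dsp, with AP.3 and AP.4 high. The others called were Krt1, Krt77, Krtdap, Ivl and Flg, and Lor, whose call was lost in 7 of the 8 fits without 1 library (all but AP.2, adjusted p up to 0.111), while Sbsn had 0.91 (limma adjusted p = 0.0816) and passed with DESeq2 (adjusted p = 0.0216), total counts (0.00199) and without AP.2 (0.045). Of 6 basal keratinocyte markers, 3 were higher (Itga6, Col17a1 and Itgb4), with a median of 1.07 and sums of 27808, 81410, 51196 and 24154 over the VC libraries, in order, and 53363, 53720, 99823 and 142908 over the AP libraries. The groups overlapped in that sum. The highest mean in both groups was that of Krt14, a keratin of the basal layer and the outer root sheath (log2 fold change 1.02, SE 0.53, limma adjusted p = 0.212), and Krt5, its partner, which was above it in VC.1, VC.3, VC.4 and AP.1, had 0.94 (SE 0.47, limma adjusted p = 0.196); both passed with total counts (adjusted p = 0.0115 and 0.00753). The calls of Col17a1 and Itgb4 were lost without VC.1, VC.4, AP.3 or AP.4, and that of Itgb4 also without AP.2, with adjusted p up to 0.0912 and 0.118. With the length trend removed both were lost too (adjusted p = 0.0573 and 0.113), and Itgb4 with edgeR (adjusted p = 0.056) and with total counts without mitochondrial genes (adjusted p = 0.0526).

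Set against these keratins within each library, the direction followed the keratin chosen. Dsp over Krt5 was 0.158, 0.0986, 0.107 and 0.118 for the VC columns and 0.284, 0.386, 0.411 and 0.324 for the AP columns. All AP libraries were above all VC libraries, and the same held for Dsg1a, Dsg1b, Dsg3, Dsc1, Dsc3 and Pkp1 over Krt5, basal and suprabasal cadherins alike. Perp over Krt5 was 0.354, 0.132, 0.164 and 0.195 among the VC mice against 0.211, 0.267, 0.267 and 0.196 among the AP mice. Here the groups overlapped, as they did for Pkp3 and Dsc2 over Krt5, with ratios of the means of 1.11 for Perp, 0.900 for Pkp3 and 0.65 for Dsc2. Over Krt10 the groups lay the other way, Dsp over Krt10 being 1.43, 0.810, 0.998 and 0.657 over the VC libraries, in order, and 0.412, 0.467, 0.344 and 0.268 over the AP libraries. Every AP library was below every VC library, and the same held for Dsg1a, Dsc2, Dsc3, Pkp1, Pkp3 and Perp over Krt10, while Dsg1b, Dsg3 and Dsc1 over Krt10 overlapped between the groups. These pairs were chosen with the levels of the genes known, and no test was made of them. They were not adjusted for transcript length, which was 9592 bases for Dsp, 2197 for Krt5 and 2094 for Krt10. The log2 fold changes of Krt10 and Krt5 were 3.85 and 0.94, beside a median of 0.06 over all genes tested. A gene that did not change would thus lie lower over Krt10 in AP. The share of all genes lying apart over either keratin was not computed, so these counts are not read as particular to desmosome genes.

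The other cell types gave a mixed picture. Of 4 inner root sheath markers, Tchh was higher (log2 fold change 3.18, SE 0.57, limma adjusted p = 0.0113), and the sums were 3198, 2494, 3364 and 821 for the VC columns and 2828, 15152, 15633 and 4744 for the AP columns. Krt25 was the most abundant in every VC library and Krt71 in every AP library. AP.2 and AP.3 had the highest sums, an order unlike that of the desmosome genes. Hair shaft markers were low in VC, with sums of 13, 7, 30 and 0 among the VC mice against 24, 344, 50 and 38 among the AP mice, the highest mean being that of Krt31 in VC and of Krt33a in AP, where it was above Krt31 in AP.2 and AP.3 alone, Krt34 at 0 in all VC libraries and Krt85 not listed. Of 4 endothelial markers, Pecam1 (log2 fold change 1.44, SE 0.31, limma adjusted p = 0.0198) and Cdh5 (log2 fold change 1.75, SE 0.47, limma adjusted p = 0.0386) were higher, the second lost without VC.1, VC.2, AP.2, AP.3 or AP.4 (adjusted p up to 0.088) and with the length trend removed (adjusted p = 0.0628), and the sums, with the highest mean for Vwf in VC and Pecam1 in AP, were 870, 808, 1719 and 1380 over the VC libraries, in order, and 2485, 6246, 2078 and 2395 over the AP libraries. Of 4 melanocyte markers, Pmel (log2 fold change -1.35, SE 0.38, limma adjusted p = 0.0462) and Tyr (log2 fold change -1.37, SE 0.37, limma adjusted p = 0.04) were lower, each lost in 7 of the 8 fits without 1 library (all but VC.4, adjusted p up to 0.116) and with total counts (adjusted p = 0.351 and 0.304) or total counts without mitochondrial genes (adjusted p = 0.0623 and 0.0525), Pmel also with no filter (adjusted p = 0.0501) and with the length trend removed (adjusted p = 0.0892), and the sums, with the highest mean for Dct in both groups, were 3956, 2966, 3584 and 1112 for the VC columns and 1161, 1409, 1876 and 1072 for the AP columns. The 4 skeletal muscle markers had a median of -1.80 and no call, with sums, led in each library by Acta1, of 34560, 52096, 25473 and 28684 among the VC mice against 46471, 6527, 3986 and 8775 among the AP mice. AP.1 was as high in them as VC, and in AP.1 the desmosome genes were at their lowest in the AP group. With AP.1 left out, Acta1 was lower in AP (adjusted p = 0.00243), and it had no call in any other alternative (adjusted p up to 0.188). No call was made among 6 fibroblast markers (median 0.49; highest mean Col3a1 in VC and Col1a1 in AP; sums of 113491, 76169, 78165 and 214350 over the VC libraries, in order, and 248493, 185673, 133545 and 94665 over the AP libraries), 4 adipocyte markers (median -0.03; highest Fabp4 in each library; sums of 18975, 5253, 6751 and 9994 for the VC columns and 10740, 16211, 8254 and 6463 for the AP columns) or 4 leukocyte markers (median -0.23; highest mean Cd74 in both groups; sums of 17188, 10016, 7094 and 25388 among the VC mice against 12438, 8073, 7573 and 7647 among the AP mice). Over the fits without 1 library these medians ran from 0.27 to 0.75, -0.29 to 0.35 and -0.49 to 0.08, the last being positive without VC.4, and with total counts they were 1.36, 0.84 and 0.64, where Col1a1, Col3a1 and Fabp4 passed (adjusted p = 0.00813, 0.00979 and 0.00544).

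Of the genes outside the 10 members with a mean of at least 50 normalized counts, 5 had the profile over the 8 libraries nearest to the mean centred log2 profile of the 10 members. The mean profile itself was -1.59, -0.33, -0.92 and -1.47 over the VC libraries, in order, and 0.23, 0.68, 1.68 and 1.72 over the AP libraries. AP.1 was the lowest AP library for all 10 members, and VC.2 the highest VC library for 8. The nearest of them was Pnpla1, which encodes an enzyme of the skin's lipid barrier, with a root-mean-square difference of 0.159 on the log2 scale, followed by Aqp3, a water and glycerol channel of keratinocytes (0.207), Itga6, an integrin of hemidesmosomes (0.217), Calm4, a calmodulin-like protein of epidermis (0.225), and Casp14, the caspase of cornification (0.234). The median over the 11247 genes compared was 1.254. Their log2 fold changes lay between 1.92 and 2.29, and Casp14 lost its call without AP.3 or AP.4 (adjusted p = 0.0633 and 0.0551). Among the members, Pkp1 was nearest to the mean profile, at 0.099, and Dsc2 farthest, at 1.068.

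The promoter of Dsp is shown because Dsp was the only member with a promoter window at hand, and not for its level or its change. RefSeq promoter windows, from 250 bases before to 50 after the start of the gene, were at hand for 1 of the 10 members, Dsp, and not for Dsg1a, Dsg1b, Dsg3, Dsc1, Dsc2, Dsc3, Pkp1, Pkp3 or Perp. The gene lies at chr13:38151294-38198577 on the plus strand, and the window at chr13:38151044-38151343 (GRCm38.p6, plus strand), with capitals for matches to the GC box GGGCGG on either strand.
Dsp: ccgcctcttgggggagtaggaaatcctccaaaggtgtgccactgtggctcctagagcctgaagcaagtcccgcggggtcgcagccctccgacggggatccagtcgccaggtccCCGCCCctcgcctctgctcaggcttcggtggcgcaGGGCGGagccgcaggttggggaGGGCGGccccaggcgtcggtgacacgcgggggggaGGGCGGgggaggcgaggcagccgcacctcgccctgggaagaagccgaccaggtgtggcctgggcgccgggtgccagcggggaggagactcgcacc
The window holds 4 GC boxes, 3 on the plus strand at positions -102, -80 and -45 from the start of the gene and 1 on the minus strand at -137. A GC box is present in 35.66% of 32851 such windows. No match was found to the AP-1 motif TGANTCA (in 7.81% of windows), to the Grainyhead motif AACCGGTT (0.15%) or to the TATA box TATAAA (13.62%), each searched on both strands. G and C made up 73.0% of its bases, beside a median of 52.7% over all windows. On the opposite strand at Dsp lies the annotated Gm10129, which shares 499 bases with its exons and is not listed in the table, so reads from the pair cannot be told apart if strand was not used in counting.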

How the data were processed

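Per the submitters' notes and the study's methods, the authors aligned cleaned reads to mm10 with STAR, counted them per gene and compared the groups with DESeq2. The notes name HTSeq as the counter and the methods featureCounts; whether strand was used is not given in the sources used here. The signal values deposited by the authors are counts divided by 1 size factor per library. All 150160 values (100%) were whole multiples of that step within 0.1 reads, so reads were recovered. Depth on the listed genes was 6454563 to 11190113 reads per library, and 3 reads were worth 1.50 to 5.63 normalized counts. The authors' own comparison columns (mean, log2 fold change with its error, test statistic, p-value and adjusted p) were not used. Columns are numbered otherwise than the samples in the labels, so each stands for its group and no library was tied to a mouse.

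The main test was limma 3.58.1 (R 4.3.3), with an intensity trend, on log2(normalized count + 1) of the 15964 genes that reached 3 normalized counts in 4 or more libraries, with Benjamini-Hochberg adjustment over all of them and 0.05 as threshold; on this scale the fold changes of low genes can differ from those of the count models. Single values were compared by an exact permutation test over 70 assignments. edgeR 4.0.16 with TMM factors, DESeq2 1.42.0 and limma-voom were run on the recovered reads, and edgeR called 1003 genes higher and 712 lower. Other alternatives were scalings, pseudocounts of 0.5 and 5, filters, removal of a loess trend on transcript length, each library left out and the study's thresholds. The steps were run on simulated data with the same spread set for all genes and both groups, which checks the code and not the calls made here. Of 18770 gene identifiers, 18766 were in GENCODE M21, which gave coordinates and lengths. Tables and plots were made in Python 3.11.15. The genes named are the 10 members, the related and marker lists (of the markers, the most abundant gene in each group, those called, Krt5 and Sbsn) and the 5 nearest profiles; members and lists were chosen with earlier results of these data known. A gene counts as lost where its adjusted p was no longer under 0.05.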

Additional observations from a re-analysis of the deposited data

Results flagged for a closer look

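In 9 of 134 groups of 4 libraries checked, the highest or lowest log2 level lay far from the other 3, judged by the gap as a share of the group's range (Dixon's criterion); chance gives this in about 1 in 20 groups. No group of a desmosome gene was among them, nor the difference between suprabasal and basal cadherins. VC.4 was low for Ctnnd1 (0.912 of the range), Nectin1 (0.933), Grhl3 (0.831, at 0 reads) and Krt77 (0.877). AP.1 was low for Ctnna1 (0.937) and high for Cd74 (0.865), and AP.2 was high for Pecam1 (0.918), Cdh5 (0.879) and Krt31 (0.842).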

How the results depend on the processing

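Over the alternatives, the count of desmosome genes called higher stayed between 7 and 9 of 10. It was between 6 and 9 when each library was left out, the lowest without AP.3 or AP.4. The count over all genes moved far more. With total counts 9 members and 8657 of all genes were higher, and without AP.3 these were 6 and 211. Dsg1a, Dsg3, Dsc1, Dsc3, Dsp and Pkp1 were called in each of the 19 fits. The median log2 fold change of all 10 was 2.11 to 2.61 over the fits without 1 library, 2.0 with the length trend removed and 3.21 with total counts. The contrast of suprabasal with basal cadherins was 0.31 to 0.45 over the other alternatives. Removing the length trend bears on these genes because the median log2 fold change was -0.30 in the 2817 genes with the shortest transcripts and 0.36 in the 2814 with the longest, and 8 of 10 stayed called.

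Over all genes, 1011 were called higher and 639 lower. DESeq2 called 1677 and 1362, limma-voom 715 and 723, total counts 8657 and 70, and the fit with the length trend removed 580 and 516; the fits without 1 library called 211 to 1061 higher and 96 to 812 lower. Of the 1253 values of 66 named genes, 1082 kept direction and side of the threshold, 103 lost a call, 51 gained one and 17 changed sign. The sign changed for Dsc2 (log2 fold change -0.12 with edgeR, -0.11 with DESeq2, -0.09 without VC.1); with total counts for Pkp2 (0.48), Ctnnd1 (0.75), Dct (0.04) and Cd74 (0.61); with upper-quartile scaling for Ctnnb1 (-0.01); with the length trend removed for Pkp4 (-0.06), Ctnnb1 (-0.04) and Afdn (-0.34); without VC.2 for Ctnnb1 (-0.01) and Afdn (-0.02); without VC.4 for Cdh3 (-0.15), Afdn (-0.08) and Cd74 (0.08); and without AP.3 for Afdn (-0.02). Over the fits without 1 library, Dsc2 ran from -0.09 to 0.81, Cdh3 from -0.15 to 0.49, Ctnnb1 from -0.01 to 0.13, Afdn from -0.08 to 0.21 and Cd74 from -0.58 to 0.08. Pkp2 ran from -0.69 to -0.14 over the same fits, Pkp4 from 0.06 to 0.23 and Ctnnd1 from -0.23 to -0.03. Of the most abundant markers without a call, Krt71 passed with edgeR (adjusted p = 0.0406), DESeq2 (0.0231), total counts (0.00413) and without AP.1 (0.0192), Krt33a with the same (0.0412, 0.0017, 0.00554 and 0.0394), Vwf with DESeq2 (0.0223), total counts (0.00299) and without VC.3 (0.0365), Krt25 and Krt31 with total counts (0.0166 and 0.018), and Dct with DESeq2 (0.0334) and without VC.4 (0.0174). The values with total counts follow the shift of all genes; the cause of the others was not tested.

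VC had fewer reads outside the mitochondrial genes, 3080758 to 3762217 against 7561598 to 10594787 in AP, so the low cadherins are measured least well there: Dsg1b had 148 reads over the 4 VC libraries and Dsc2 150. No paired analysis was possible because the columns carry no sample numbers and the groups share none in the labels.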

Other observations

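The 10 desmosome genes together took 0.0641, 0.121, 0.105 and 0.0441% of the reads on listed genes in the VC libraries, in order, and 0.299, 0.388, 0.828 and 0.823% in the AP libraries. With the mitochondrially encoded genes left out of the total, these shares were 0.140, 0.221, 0.181 and 0.0924% and 0.336, 0.421, 0.874 and 0.918%. The groups were apart with either total, and the gap was smaller with the second.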
